A study of Mus musculus with 7 samples.

Results

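The genes described here make up the classical major histocompatibility complex (MHC) class I pathway of the mouse spleen: H2-K1, H2-D1, B2m, Tap1, Tap2, Tapbp, Psmb8, Psmb9, Psmb10 and Nlrc5. They were taken by symbol, whatever their values, and all 10 were found among the 17920 genes listed. Spleens of C57BL/6 mice aged 8 weeks were collected 90 min or 6 h after an intraperitoneal injection of lipopolysaccharide (LPS), a bacterial cell wall component, at 20 mg/kg, and whole-spleen RNA was sequenced. Every group received LPS and no unstimulated spleen was analysed here. The groups were wild type at 90 min (2 libraries), GdX-deficient at 90 min (2), wild type at 6 h (2) and GdX-deficient at 6 h (1). GdX, also named UBL4A, is a ubiquitin-like protein encoded on the X chromosome by Ubl4a. The genotype is labelled GdX-/- for single samples and GdX-/Y for the mice as a whole, and the sources used here do not describe the deleted stretch. The series describes its libraries as coming from separate mice, but its sample labels identify no animal, so the p-values measure only the spread between these libraries.

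Class I molecules show peptides from inside the cell to CD8+ T cells. The proteasome cuts proteins into peptides, the transporter TAP carries them into the endoplasmic reticulum (ER), and tapasin and its partners load them onto a heavy chain bound to beta2-microglobulin. In immune cells the catalytic subunits of the proteasome can be replaced by the interferon-inducible subunits of the immunoproteasome, and the transactivator NLRC5 drives transcription of class I genes through elements shared by their promoters.

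By RefSeq annotation (assembly GRCm38.p6), 7 of the 10 genes lie on chromosome 17, 2 on chromosome 8 (Psmb10 and Nlrc5) and 1 on chromosome 2 (B2m). RefSeq promoter windows, from 250 bases before to 50 bases after a start site, were matched by symbol for 8 of the 10 genes. The windows below are those of both heavy chains, of their light chain and of a transporter gene, chosen with the expression values known. None of these genes was called between times, and no part of the motifs in expression was tested. The H2-K1 window is chr17:34000298-34000597 on the minus strand and is the first of those listed for that gene. The H2-D1 window is chr17:35262844-35263143, the B2m window chr2:122147437-122147736 and the Tap1 window chr17:34187306-34187605, all on the plus strand. Capitals mark matches, on either strand and with overlaps allowed, to an interferon response core (AANNGAAA), an NF-kB motif (GGNNTNNCC), a cyclic AMP response type motif (TGACGC) and a CCAAT box (CCAAT).
H2-K1: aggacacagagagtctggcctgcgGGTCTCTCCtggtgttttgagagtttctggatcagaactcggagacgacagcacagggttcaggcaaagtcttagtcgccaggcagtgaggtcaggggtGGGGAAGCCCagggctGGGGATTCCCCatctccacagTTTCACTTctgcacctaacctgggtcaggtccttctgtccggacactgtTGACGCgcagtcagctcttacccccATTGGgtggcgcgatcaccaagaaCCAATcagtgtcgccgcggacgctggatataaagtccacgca
H2-D1: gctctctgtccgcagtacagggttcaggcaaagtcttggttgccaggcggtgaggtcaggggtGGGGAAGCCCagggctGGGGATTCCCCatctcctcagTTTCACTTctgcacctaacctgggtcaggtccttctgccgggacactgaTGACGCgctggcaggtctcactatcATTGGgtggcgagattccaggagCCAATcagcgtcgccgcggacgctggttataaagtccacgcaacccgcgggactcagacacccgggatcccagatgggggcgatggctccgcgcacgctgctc
B2m: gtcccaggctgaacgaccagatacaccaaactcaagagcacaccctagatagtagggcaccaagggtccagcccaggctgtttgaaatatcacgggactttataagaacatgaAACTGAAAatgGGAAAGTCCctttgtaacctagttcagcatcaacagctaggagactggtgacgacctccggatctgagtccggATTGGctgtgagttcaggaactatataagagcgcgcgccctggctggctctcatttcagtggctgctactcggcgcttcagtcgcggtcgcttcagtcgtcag
Tap1: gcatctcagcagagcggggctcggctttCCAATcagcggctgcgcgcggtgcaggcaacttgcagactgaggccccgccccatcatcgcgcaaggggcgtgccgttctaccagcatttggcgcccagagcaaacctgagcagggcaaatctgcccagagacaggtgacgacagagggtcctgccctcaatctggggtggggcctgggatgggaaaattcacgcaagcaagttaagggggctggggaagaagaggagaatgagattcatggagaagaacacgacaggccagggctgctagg
H2-K1 and H2-D1 held matches to all 4 motifs in the same order, apart from 1 more NF-kB match far upstream in H2-K1, and B2m to 3 of them. The Tap1 window held a CCAAT match only, and it shares 275 bases with the window of Psmb9, whose start lies 226 bases away on the opposite strand. Of 32851 RefSeq promoter windows of this length, 23.9% held the interferon response core, 47.5% the NF-kB motif, 7.4% TGACGC and 37.4% CCAAT. Among the 8 class I windows the counts were 3, 3, 2 and 6. The CCAAT matches of Tap1 and Psmb9 are the same bases, counted for both genes. A STAT transcription factor motif (TTCNNNGAA), searched too but not marked, was in 1 of the 8 windows (Psmb8) and in 8.3% of RefSeq windows. A match describes letters in a window and not a bound site.

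Expression was read as FPKM (fragments per kilobase of transcript, relative to all fragments mapped in a library). Low FPKM values implied about 19100000 to 21300000 mapped fragments per library. Nlrc5 had the fewest fragments of the 10 genes, about 2100 in its lowest library, where counting error was about 2.18%. Globin genes took between 7.73% and 30.9% of a library's FPKM sum, which can shift the FPKM of every other gene. In both wild-type pairs the difference between replicates followed transcript length (Spearman rho across genes of -0.45 at 90 min and -0.59 at 6 h), with replicate 1 higher for short transcripts. All tests below used limma on log2(FPKM + 1), with 11378 genes tested and Benjamini-Hochberg adjustment over all of them. A gene was called at an adjusted p under 0.05. Marker genes of the cell types moved between groups too. The summed FPKM of 9 B cell markers (9 of 9 listed, none at 0) was 1702 and 1621 in wild type at 90 min, 1416 and 2364 in GdX-deficient libraries at 90 min, 547 and 615 in wild type at 6 h, and 2018 in the GdX-deficient library at 6 h. T cell markers (7 of 8 listed) summed to 297 to 401 FPKM in the 4 libraries at 90 min, to 182 and 158 in wild type at 6 h and to 321 in the GdX-deficient library at 6 h. Dendritic cell markers (6 of 6) summed to 33.6 to 42.1, to 18.7 and 21.6, and to 41.1 FPKM, and red pulp macrophage markers (8 of 8) to 902 to 1190, to 778 and 642, and to 1055 FPKM in the same order. Neutrophil markers (8 of 8) stood apart in GdX-deficient 90 min replicate 2, at 4336 FPKM against 1047 in replicate 1, and were at 1199 and 757 in wild type at 90 min, 1121 and 765 in wild type at 6 h and 2474 in the GdX-deficient library at 6 h. Natural killer cell markers (4 of 4) summed to 109 to 158 FPKM at 90 min, to 204 and 145 in wild type at 6 h and to 181 in the GdX-deficient library at 6 h. Endothelial and stromal markers (6 of 6) were at 99.1 and 85.3 FPKM in wild type and 55.7 and 55.3 in GdX-deficient libraries at 90 min, at 36.7 and 60.2 in wild type at 6 h and at 93.5 in the GdX-deficient library at 6 h. No marker of these lists was at 0 in every library. In a bulk sample, fewer cells of a type and less RNA per cell cannot be told apart.

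Of the 10 class I genes, only Tap2 passed the test between 90 min and 6 h in wild-type spleen, where it rose more than 2-fold. The immunoproteasome subunits, Tap1, Tapbp and Nlrc5 had higher values in both libraries at 6 h without passing it, and the heavy chains and B2m had differences near 0. The plot of FPKM by library shows all values.

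**Figure D1:**
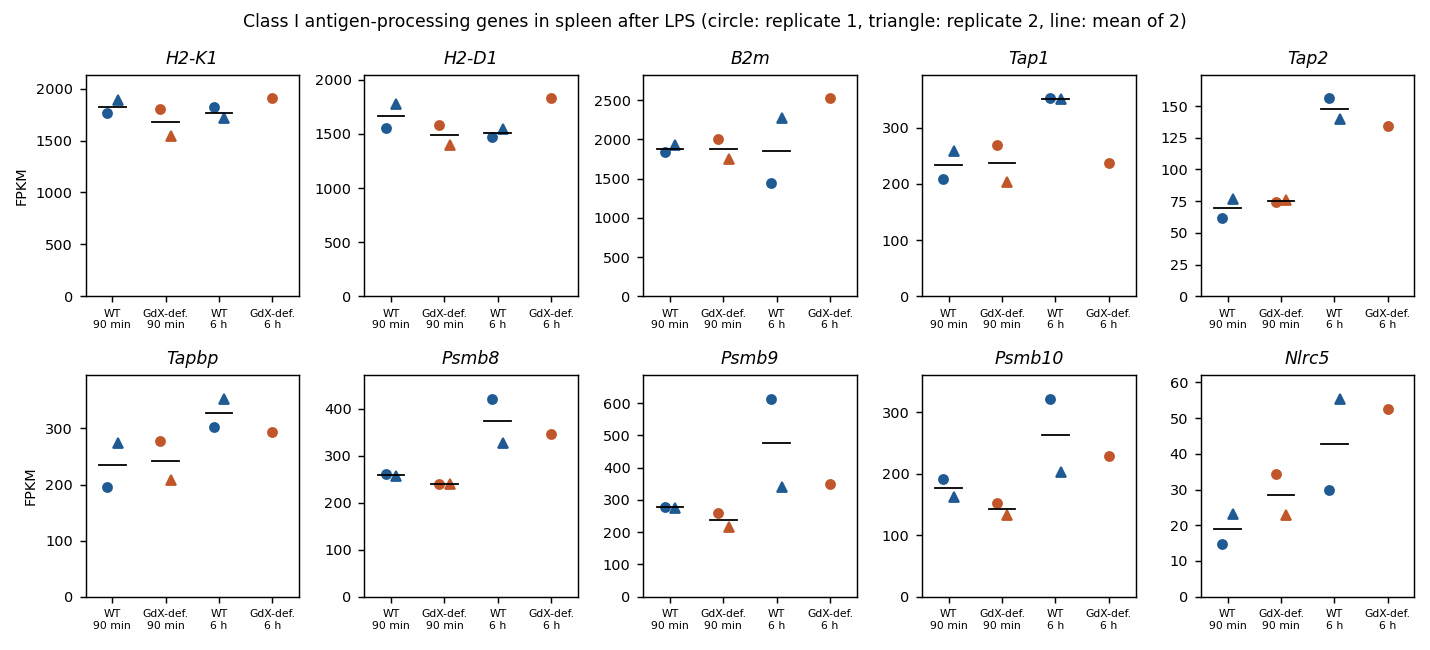
FPKM of each of the 10 genes in each library, by genotype (WT, wild type; GdX-def., GdX-deficient) and time after LPS; circles are replicate 1, triangles replicate 2, and lines the mean of 2. Tap2 was between 134 and 156 FPKM in the 3 libraries at 6 h and between 61.9 and 76.5 in the 4 at 90 min, while H2-K1 kept between 1539 and 1908 FPKM throughout.

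H2-K1, the heavy chain of the H-2K molecule, was at 1761 and 1893 FPKM in wild type at 90 min and 1824 and 1715 at 6 h. The GdX-deficient libraries held 1809 and 1539 at 90 min and 1908 at 6 h. H2-K1 thus varied least of the 10, with a highest value 1.24 times the lowest. H2-D1, the heavy chain of the H-2D molecule, was at 1558 and 1774 FPKM in wild type at 90 min and 1474 and 1543 at 6 h, so that the wild-type times did not overlap and 6 h was lower. In GdX-deficient libraries H2-D1 was at 1578 and 1395 FPKM at 90 min and at 1829 at 6 h, the highest of all 7. B2m, the light chain that heavy chains need to leave the ER, was at 1837 and 1925 FPKM in wild type at 90 min and at 1442 and 2274 at 6 h. The GdX-deficient libraries were at 2006 and 1753 FPKM at 90 min and at 2524 at 6 h. The wild-type pair at 6 h thus spanned most of the range of B2m over the 7 libraries. None of these 3 genes was called between times: the log2 difference of 6 h from 90 min in wild type was -0.046 (SE 0.30) for H2-K1, -0.14 (SE 0.29) for H2-D1 and -0.055 (SE 0.33) for B2m, with limma adjusted p between 0.791 and 0.937. H2-K1 and H2-D1 are closely similar in sequence to each other and to the H2-Q and H2-T genes, and how fragments that match several of them were assigned is not given in the sources used here, so their separate levels are uncertain. The FPKM sum over 17 listed class I heavy-chain genes lay between 4501 and 5617 FPKM and was highest in the GdX-deficient library at 6 h.

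The TAP transporter is a pair of half-transporters encoded by Tap1 and Tap2. Tap2 was at 61.9 and 76.5 FPKM in wild type at 90 min and at 156 and 139 at 6 h. The GdX-deficient libraries were at 74.0 and 75.9 FPKM at 90 min and at 134 at 6 h, so all 3 libraries at 6 h lay above all 4 at 90 min. Tap2 rose 2.13-fold in wild type (log2 difference 1.09, SE 0.24, limma adjusted p = 0.0233), and it was the only one of the 10 genes called in any comparison. Among all genes tested, 10.7% were called between times in wild type, 4.39% as higher and 6.32% as lower at 6 h. The call was lost without wild type 90 min replicate 1 (log2 difference 0.94, adjusted p = 0.226), without wild type 90 min replicate 2 (1.24, adjusted p = 0.0761) and with library sums made equal after leaving out globin genes (0.97, adjusted p = 0.0621). In the GdX-deficient libraries the same difference was 0.83 (SE 0.30, adjusted p = 0.445). Here and below, a test that involves the lone GdX-deficient library at 6 h assumes that it varies like the replicated groups.

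Tap1 followed a different order. It was at 208 and 259 FPKM in wild type at 90 min and at 352 and 351 at 6 h, against 269 and 204 in GdX-deficient libraries at 90 min and 237 at 6 h. The wild-type 6 h libraries thus stood above the 5 others, and the GdX-deficient library at 6 h lay between the GdX-deficient libraries at 90 min. The log2 difference between times was 0.60 in wild type (SE 0.26, adjusted p = 0.169) and 0.019 in GdX-deficient libraries (SE 0.32, adjusted p = 0.986). The difference between these changes, tested as the interaction of genotype and time, was -0.58 (SE 0.42, adjusted p = 0.743), so it was not shown that Tap1 changed differently in the 2 genotypes. The ratio of Tap1 to Tap2 within a library was 3.36 and 3.38 in wild type at 90 min, 3.63 and 2.69 in GdX-deficient libraries at 90 min, 2.26 and 2.52 in wild type at 6 h and 1.77 in the GdX-deficient library at 6 h. It was lower in each library at 6 h than in any at 90 min. Tapbp encodes tapasin, which bridges TAP and the empty heavy chain. Tapbp was at 196 and 274 FPKM in wild type at 90 min, 278 and 207 in GdX-deficient libraries at 90 min, 303 and 353 in wild type at 6 h and 294 in the GdX-deficient library at 6 h. Its values at 6 h were above all those at 90 min, with log2 differences of 0.50 (SE 0.28) in wild type and 0.29 (SE 0.35) in GdX-deficient libraries, neither called (adjusted p = 0.281 and 0.837).

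The 3 catalytic subunits of the immunoproteasome had similar differences between times. Psmb8 (LMP7, which takes the place of the subunit encoded by Psmb5) was at 261 and 258 FPKM in wild type at 90 min and at 422 and 328 at 6 h. Its GdX-deficient values were 239 in both libraries at 90 min and 346 at 6 h, so Psmb8 was higher in each library at 6 h than in any at 90 min. Psmb9 (LMP2, in place of the Psmb6 product) was at 279 and 275 FPKM in wild type at 90 min and at 614 and 339 at 6 h, against 259 and 217, then 348, in GdX-deficient libraries. Psmb10 (MECL-1, in place of the Psmb7 product) was at 191 and 162 FPKM in wild type at 90 min and at 322 and 203 at 6 h, against 152 and 132, then 229, in GdX-deficient libraries. For all 3 genes wild type 6 h replicate 1 was the highest of the 7 libraries, most of all for Psmb9. The log2 differences between times in wild type were 0.52 (SE 0.25) for Psmb8, 0.72 (SE 0.32) for Psmb9 and 0.54 (SE 0.29) for Psmb10, with adjusted p of 0.209, 0.168 and 0.250. Psmb9 was called when wild type 6 h replicate 2 was left out (1.15, adjusted p = 0.0141), and its difference was 0.29 (adjusted p = 0.571) without replicate 1. In GdX-deficient libraries the same differences were 0.53, 0.55 and 0.69, with adjusted p between 0.710 and 0.797. Across the 7 libraries, the 3 genes had Pearson correlations of 0.948 to 0.970 with each other on the log2 scale, a description over libraries that share group structure and the trend on transcript length. Although Psmb9 and Tap1 start on opposite strands of a shared window, their FPKM ratio ranged from 0.963 to 1.74 among libraries.

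Nlrc5, the transactivator of class I genes, was at 14.9 and 23 FPKM in wild type at 90 min and at 30.0 and 55.5 at 6 h. The GdX-deficient libraries were at 34.3 and 22.8 FPKM at 90 min and at 52.6 at 6 h. Nlrc5 was the lowest of the 10 genes and the most variable, with a highest value 3.74 times the lowest, and its GdX-deficient values overlapped the wild-type ones at both times. The log2 difference between times in wild type was 1.10 (SE 0.37, adjusted p = 0.0858), as large as that of Tap2 but with a wider error. It was called without wild type 6 h replicate 1 (1.53, adjusted p = 0.0062) and with the trend on transcript length removed (1.21, adjusted p = 0.0332), while without replicate 2 of that group the difference was 0.67. In GdX-deficient libraries the difference was 0.89 (SE 0.45, adjusted p = 0.702).

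As a list, 7 of the 10 genes had log2 differences above 0 between times in wild type, beside 53.1% of all genes, with a median of 0.53 (0.31 without wild type 6 h replicate 1) against 0.052 over all genes tested. The libraries of the 2 times did not overlap for 8 of the 10 (7 higher at 6 h and H2-D1 lower), against 57.9% of all genes (30.3% higher and 27.6% lower). In GdX-deficient libraries all 10 were above 0, beside 75.1% of all genes, with a median of 0.48 against 0.25 over all genes, and 9 of 10 did not overlap, against 72.6% of all genes (56.8% higher). None of the 10 was called there. In that comparison limma called 0% of all genes, and 910 genes (8%) had an unadjusted p under 0.05. None of the 10 was called for the interaction of genotype and time, which called 0.0703% of all genes, and the lowest adjusted p among them was that of Tap1. A missing call there does not show that the time differences were alike in the genotypes. In simulated data the interaction test recovered 0% of 200 changes of 2 on the log2 scale. The 2 time comparisons use different libraries, but each shares its libraries with the genotype comparisons. Marker sums of B cells, T cells, dendritic cells, red pulp macrophages, red cell precursors and endothelium and stroma were lower at 6 h than at 90 min in wild type and those of natural killer cells were higher. In GdX-deficient libraries the sums of natural killer cells, dendritic cells and endothelium and stroma were higher at 6 h than in both libraries at 90 min, that of red cell precursors was lower, and the others lay between. The part of these markers in the time differences was not tested.

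**Figure D2:**
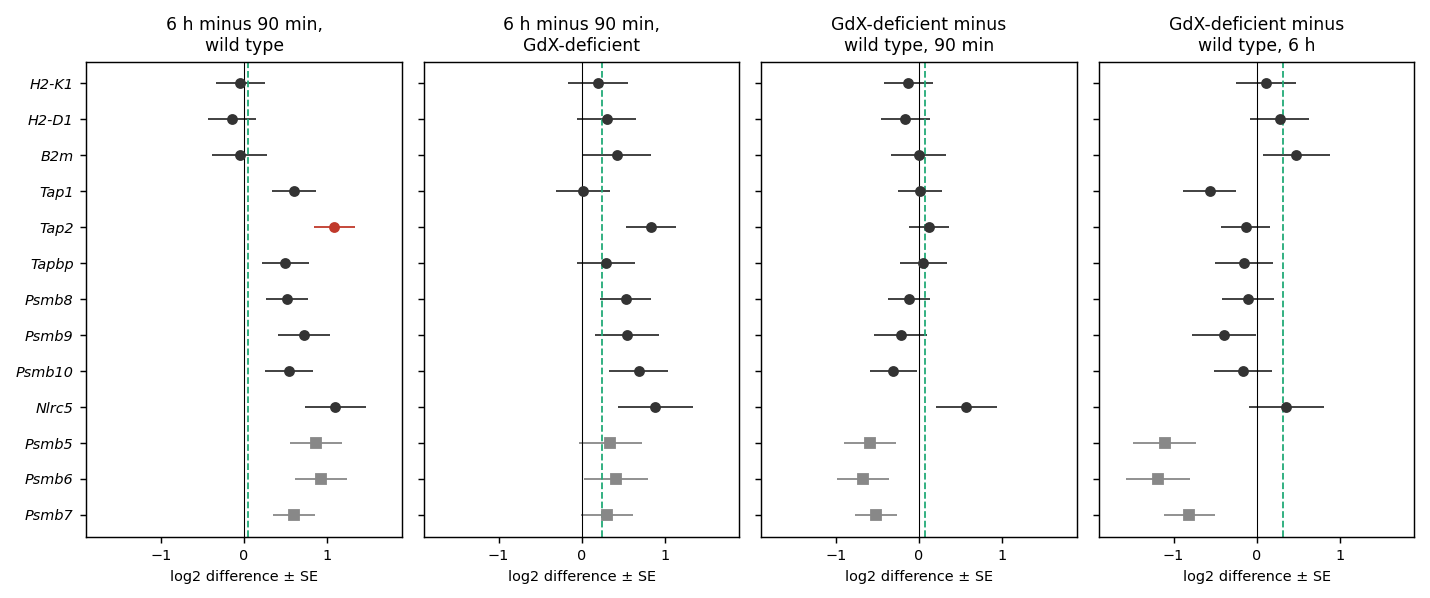
Log2 difference of FPKM + 1 with its SE (horizontal bars, moderated by limma) for the 10 genes (circles) and the constitutive subunits Psmb5, Psmb6 and Psmb7 (grey squares) in 4 comparisons; the dashed line is the median of all genes tested and red marks a called difference. Tap2 in wild type (1.09) was the only red point, and the grey squares lay below 0 in both genotype panels, at -0.52 to -0.68 at 90 min and -0.81 to -1.19 at 6 h.

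Between the genotypes no class I gene was called at either time. At 90 min the differences of GdX-deficient from wild-type libraries ran from -0.31 (Psmb10, SE 0.29) to 0.57 (Nlrc5, SE 0.37), with a median of -0.061 against 0.071 over all genes and a lowest adjusted p of 0.634. Leaving out 1 library at a time the median ran from -0.17 to 0.040, the highest without GdX-deficient 90 min replicate 2. Psmb8, Psmb9 and Psmb10 each had both GdX-deficient values under both wild-type values, at 0.921, 0.857 and 0.807 of the wild-type level, although Psmb8 was above 0 with other scalings (0.11 after quantile normalization). The 7 others overlapped. At that time the marker sums of endothelium and stroma, red pulp macrophages and dendritic cells were lower in both GdX-deficient libraries than in both wild-type libraries, and those of red cell precursors and natural killer cells were higher. Among all genes 0.0176% were called at 90 min and 47.5% did not overlap (23.4% with GdX-deficient values lower). At 6 h, differences ran from -0.56 (Tap1, SE 0.32, adjusted p = 0.274) to 0.48 (B2m, SE 0.41, adjusted p = 0.451), with a median of -0.12 against 0.32 over all genes. Without wild type 6 h replicate 1 the B2m difference was 0.15 and the median of the 10 genes 0.057, and without replicate 2 they were 0.81 and -0.13. In that comparison 3.96% of all genes were called (2.91% higher and 1.05% lower in the GdX-deficient library) and 80.3% did not overlap (54.9% higher and 25.3% lower). The GdX-deficient library lay above both wild-type libraries for H2-K1, H2-D1 and B2m and below both for Tap1, Tap2 and Tapbp. It fell between them for the other 4. The B cell marker sum of that library was at least 3 times that of either wild-type library, and its T cell, dendritic cell, red pulp macrophage, neutrophil, red cell precursor and endothelial and stromal sums were above both as well. The part of these markers in the differences at either time was not tested. Signs at 6 h depended on scaling: Tap2, Tapbp, Psmb8 and Psmb10 were above 0 after quantile normalization and with equal library sums, and Psmb9 after quantile normalization, where the median of the 10 genes was 0.22 against -0.017 over all genes. With time as a covariate, none of the 10 was called (median -0.032 against 0.16 over all genes, of which 0.0439% were called). None of the 10 lay on the same side of wild type in every GdX-deficient library at both times, against 32.1% of all genes.

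The constitutive catalytic subunits that the immunoproteasome subunits replace had lower FPKM in the GdX-deficient libraries, without passing the test. Psmb5 was at 141 and 124 FPKM in wild type at 90 min against 96.0 and 80.0 in GdX-deficient libraries, and at 327 and 179 at 6 h against 112. Psmb6 was at 142 and 108 FPKM against 89.0 and 66.9 at 90 min, and at 307 and 183 against 103 at 6 h. Psmb7 was at 134 and 110 FPKM against 91.2 and 78.1 at 90 min, and at 203 and 166 against 104 at 6 h. For all 3 genes every GdX-deficient library was below both wild-type libraries of its time, as for 13% of all genes. None was called in the main fit: the log2 differences at 6 h were -1.11 (SE 0.38) for Psmb5, -1.19 (SE 0.39) for Psmb6 and -0.81 (SE 0.31) for Psmb7, with adjusted p of 0.107, 0.094 and 0.130. Wild type 6 h replicate 1 was the highest library for each, and without it the Psmb5 difference was -0.68 (adjusted p = 0.301) and the Psmb6 difference -0.82 (adjusted p = 0.212). Without replicate 2 both were called, at -1.54 (adjusted p = 0.0039) and -1.57 (adjusted p = 0.0042).

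A ratio of an immunoproteasome subunit to its counterpart within a library does not change when all values of that library are multiplied by 1 factor. Psmb8 over Psmb5 was 1.85 and 2.08 in wild type and 2.49 and 2.99 in GdX-deficient libraries at 90 min. At 6 h it was 1.29 and 1.83 in wild type and 3.09 in the GdX-deficient library. Psmb9 over Psmb6 was 1.97 and 2.54 against 2.91 and 3.25 at 90 min, and 2.00 and 1.86 against 3.37 at 6 h. Psmb10 over Psmb7 was 1.43 and 1.48 against 1.67 and 1.69 at 90 min, and 1.58 and 1.22 against 2.19 at 6 h. All 3 ratios were higher in each GdX-deficient library than in any wild-type library of either time, as the plot of ratios shows. Averaged over the times, the log2 difference between genotypes was 0.74 for Psmb8/Psmb5, 0.63 for Psmb9/Psmb6 and 0.43 for Psmb10/Psmb7. In a two-sided exact permutation test of genotype within time, each gave p = 0.0556, the smallest that the 18 arrangements allow (0.0556 after adjustment over the 3 ratios), so the design cannot reach 0.05. Psmb8, Psmb9 and Psmb10 were not called between genotypes, and the higher ratios went with lower FPKM of Psmb5, Psmb6 and Psmb7 in each GdX-deficient library. Transcripts of Psmb5 and Psmb6 are shorter than those of Psmb8 and Psmb9. With each library's trend on transcript length removed, the differences in the same exact permutation test were 0.54 (p = 0.0556), 0.48 (p = 0.111) and 0.39 (p = 0.111). Without the GdX-deficient library at 6 h they were 0.47, 0.46 and 0.21.

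**Figure D3:**
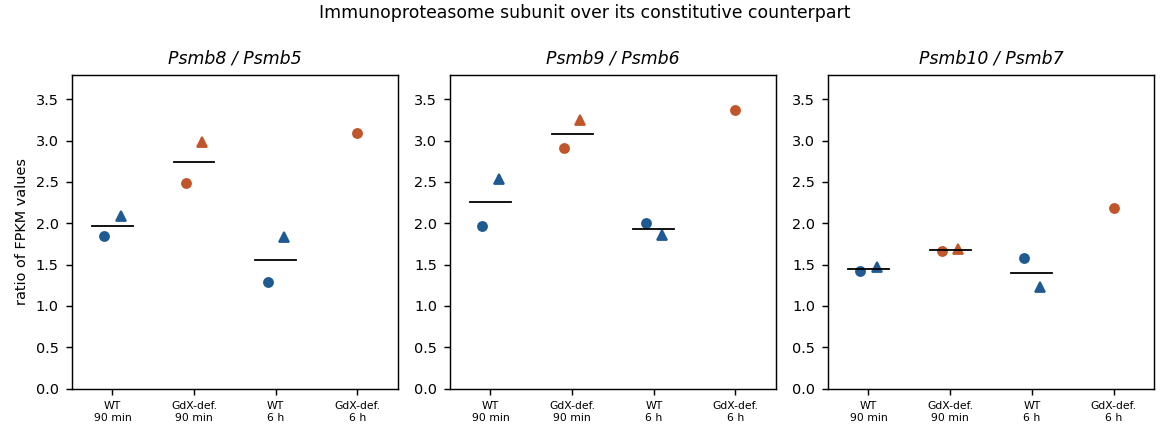
Ratio of FPKM of each immunoproteasome subunit to its constitutive counterpart in each library (WT, wild type; GdX-def., GdX-deficient); circles are replicate 1, triangles replicate 2, and lines the mean of 2. GdX-deficient libraries sat at 2.49 to 3.09, 2.91 to 3.37 and 1.67 to 2.19 in the 3 panels, above the wild-type libraries of both times.

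The other genes of the proteasome core, its regulatory particle and its assembly chaperones had differences on the same side as Psmb5, Psmb6 and Psmb7. All 11 other genes of the 20S core, which encloses the catalytic sites, were lower in each GdX-deficient library than in both wild-type libraries at both times, against 13% of all genes. Their median log2 difference was -0.43 at 90 min and -0.85 at 6 h, with none called, and Psma6 had the smallest p at 90 min (-0.95, SE 0.32, adjusted p = 0.592) and Psma4 at 6 h (adjusted p = 0.0803). All 18 genes of the 19S regulatory particle, which recognizes and unfolds ubiquitinated proteins, had differences below 0 at both times (medians -0.36 and -0.65), none called. At 90 min this held for as few as 13 of the 18 under other settings, whereas the signs of the 20S genes held in every setting run. The 5 assembly chaperones had medians of -0.61 and -1.37. Among them Psmg1, which helps to build the ring of alpha subunits, was called at 6 h (17.2 FPKM against 70.9 and 44.9, log2 difference -1.66, SE 0.36, adjusted p = 0.041), and the call was lost without wild type 6 h replicate 1 (-1.33, adjusted p = 0.0533). It was also lost without either GdX-deficient library at 90 min (adjusted p = 0.0536 and 0.0538), with no filter on low values (adjusted p = 0.0872) and with equal library sums (adjusted p = 0.0694). Among all genes 1.05% were called lower at 6 h. The 4 proteasome activator genes were divided, with 2 above and 2 below 0 at 90 min (median -0.016) and 1 above and 3 below at 6 h (median -0.49), none called. Psme2 had the smallest p among them (log2 difference -0.65, adjusted p = 0.621 at 90 min, and -1.04, adjusted p = 0.142 at 6 h). Psme4, named after its values were seen, was higher in each GdX-deficient library than in both wild-type libraries of its time, at 9.22 and 11.2 against 6.20 and 8.01 FPKM, then 12.5 against 5.15 and 12.2. Psme1 and Psme2 were lower in each GdX-deficient library than in both wild-type libraries of its time. Over all genes, 32.1% lay on the same side at both times, with 13% of all genes lower. The summed FPKM of 7 red cell precursor markers (7 of 7 listed, none at 0) was higher in GdX-deficient than in wild-type libraries at both times, at 505 and 513 against 228 and 269, then 321 against 48.4 and 71.5. Endothelial and stromal markers were lower at 90 min and higher at 6 h. The part of these markers in the proteasome differences was not tested.

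**Figure D4:**
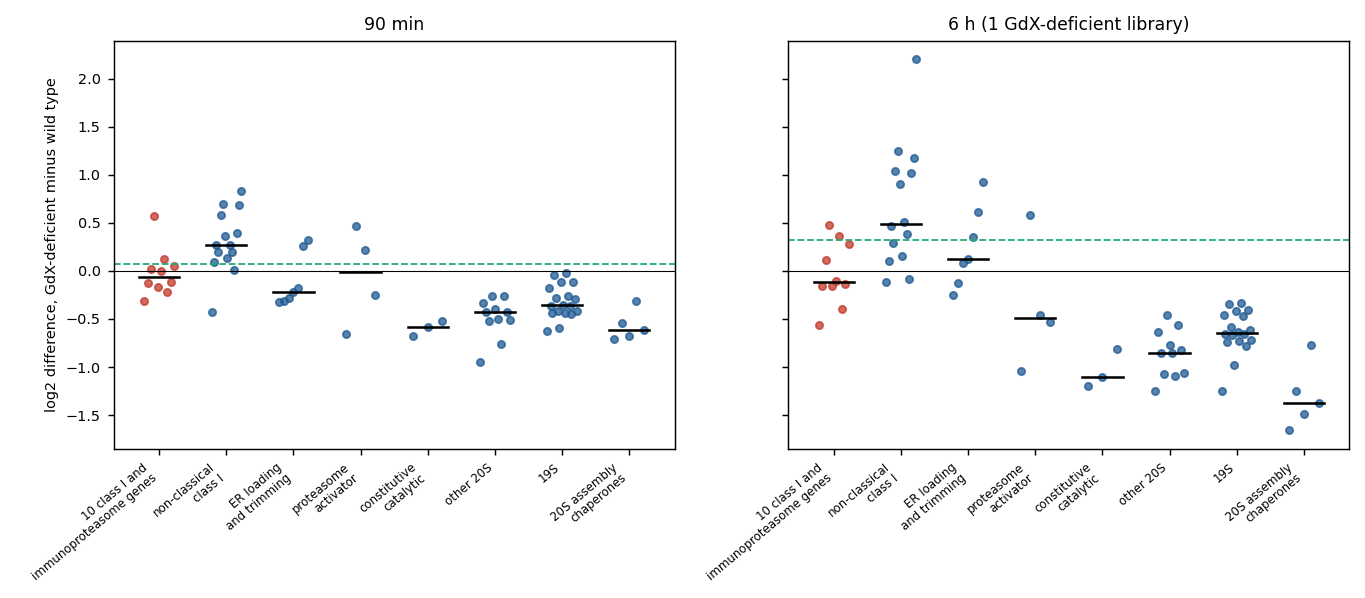
Log2 difference of FPKM + 1, GdX-deficient minus wild type, for each tested gene of 8 lists at 90 min (left) and 6 h (right); black lines are list medians, the dashed line is the median of all genes and the 10 class I genes are red. The 4 proteasome lists at the right of each panel lay below 0 with medians from -0.36 to -0.61 at 90 min and from -0.65 to -1.37 at 6 h, while the class I genes had medians of -0.061 and -0.12.

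Between times in wild type the signs were the other way. All 11 other genes of the 20S core and all 18 genes of the 19S particle had positive differences between times, with 2 and 4 called as higher, beside 4.39% of all genes. Among them were Psma7 (1.03, SE 0.27, adjusted p = 0.041), Psma5 (0.97, adjusted p = 0.0427), Psmd3 (1.17, adjusted p = 0.0317) and Psmc4 (0.98, adjusted p = 0.032). All 5 assembly chaperones had positive differences as well (median 1.02), with 2 called as higher, beside 4.39% of all genes. The called genes were Psmg1 at 1.47 (limma adjusted p = 0.0165) and Psmg4 at 1.43 (limma adjusted p = 0.0269). The subunits of the PA28 activator, an interferon-inducible cap that opens the 20S core, rose too. Psme1 was at 349 and 323 FPKM at 90 min and 805 and 603 at 6 h (log2 difference 1.05, SE 0.27, adjusted p = 0.0393). Psme2 was at 525 and 398 FPKM at 90 min and 1438 and 837 at 6 h (1.26, SE 0.34, adjusted p = 0.0458). Psme3 and Psme4, whose products form other activators, were not called. Psme2 has a near-identical copy, so its level is uncertain. These calls were fragile: of 12 named genes from the lists called between times in wild type, 2 remained called without wild type 90 min replicate 1 (Psmg1 and Psmg4), 1 without replicate 2 (Psmd3), 4 without wild type 6 h replicate 1, 5 without either GdX-deficient library at 90 min and 1 with no filter on low values (Psmc4).

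Among 7 loading and trimming genes of the ER, 3 had differences above 0 and 4 below 0 between times in wild type. Of the 7, 1 was called higher and 1 lower, where 4.39% of all genes were called higher and 6.32% lower. Tapbpl, a tapasin-related peptide editor, rose from 26.2 and 35.0 FPKM to 54.1 and 68.9 (log2 difference 0.99, SE 0.27, adjusted p = 0.0458). Calr, which encodes the chaperone calreticulin of the loading complex, fell from 294 and 338 FPKM to 144 and 173 (-0.99, SE 0.25, adjusted p = 0.0376). At 6 h Calr was at 300 FPKM in GdX-deficient spleen, close to the 292 and 249 of the GdX-deficient libraries at 90 min. The genotype difference of Calr at 6 h was 0.92 (SE 0.31, adjusted p = 0.1) and its interaction was not called (adjusted p = 0.351).

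Non-classical class I genes encode heavy chains with restricted ligands or tissue range, and 14 of 16 were tested. In wild type 8 of the 14 had differences below 0 between times, and 2 were called lower at 6 h, beside 6.32% of all genes. Cd1d1, which presents lipids to natural killer T cells, fell from 15.3 and 13.3 FPKM to 3.92 and 5.28 (log2 difference -1.46, SE 0.33, adjusted p = 0.0238). H2-M2 fell from 4.95 and 4.56 FPKM to 1.23 and 2.03 (-1.15, SE 0.29, adjusted p = 0.037). Cd1d1 was also the single gene of this list called between genotypes (2.91% of all genes were called higher at 6 h), with 24.5 FPKM at 6 h in the GdX-deficient spleen (log2 difference 2.20, SE 0.40, adjusted p = 0.0275), and this call held without any 1 of the 6 other libraries (2.02 to 2.38) but not with no filter on low values (adjusted p = 0.0758). The marker sums of B cells, T cells, dendritic cells, red pulp macrophages, red cell precursors and endothelium and stroma had the same direction in both comparisons, lower at 6 h in wild type and higher in the GdX-deficient library at 6 h. Their part in the Cd1d1 differences was not tested. H2-T24, a class I gene of the T region, had the smallest p of the list at 90 min. It was at 84.7 and 103 FPKM in GdX-deficient libraries against 45.1 and 60.1 in wild type at 90 min, and at 104 against 43.4 and 57.6 at 6 h, with no overlap at either time. Its log2 difference was 0.83 (SE 0.27, adjusted p = 0.573) at 90 min and 1.04 (SE 0.33, adjusted p = 0.0931) at 6 h, not called at either. Over the 14 genes the median difference was 0.27 at 90 min and 0.49 at 6 h, against 0.071 and 0.32 over all genes.

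None of 21 regulators of class I transcription was called in any comparison of genotype or time, where 0.0176% of all genes were called between genotypes at 90 min, 3.96% at 6 h, 10.7% between times in wild type and 0% between times in GdX-deficient libraries. Irf1, an interferon-inducible activator of Tap1 and Psmb9, was at 438 and 466 FPKM in wild type at 90 min and 320 and 366 at 6 h. In GdX-deficient libraries Irf1 was at 423 and 332 FPKM at 90 min and 225 at 6 h, below both wild-type libraries of each time. Its log2 difference between genotypes was -0.27 (SE 0.26, adjusted p = 0.691) at 90 min and -0.60 (SE 0.32, adjusted p = 0.241) at 6 h.

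The genes outside the list whose pattern was most like the mean standardized level of the 10 class I genes over the 7 libraries were Ifitm3 (Pearson r 0.989), Apol9a (0.976), Robo4 (0.974), Mvp (0.972) and Cndp2 (0.971). Ifitm3, an interferon-inducible membrane protein, was at 387 and 479 FPKM in wild type at 90 min, 444 and 263 in GdX-deficient libraries at 90 min, 875 and 769 in wild type at 6 h and 820 in the GdX-deficient library at 6 h. These are the 5 highest correlations among all genes tested over 7 points that share group structure, and are given as a description. Of the 10 genes themselves, B2m (0.311), H2-D1 (0.456) and H2-K1 (0.650) followed this mean least and Tapbp (0.884) most. Apol9a was between 0.62 and 2.19 FPKM, near the filter at a mean of 1.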

How the data were processed

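The authors deposited FPKM values per gene and library, per the file headers, with RefSeq transcripts. The submitters' processing notes name HISAT, HISAT2 2.0.4, Bowtie2, RSEM and the build GRCm38.p5, with no role or order. Whether fragments shared by near-identical genes were split is not given in the sources used here. Mapped fragments were estimated from the steps between low FPKM values of transcripts of 500 to 1500 bases. Genes whose FPKM averaged 1 or more were tested on log2(FPKM + 1), with limma 3.58.1 in R 4.3.3 (4 groups sharing 1 estimate of spread, trend on mean level). Fold changes understate changes of low genes. The test was tried on simulated data. Ratios were compared by exact permutation of genotype within time.

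The 10 genes, the lists and the tests were chosen with earlier results of these data known. All 10 genes were named. For other lists, up to 2 called genes in each direction with the smallest p were named, or else the gene with the smallest p, beside Psmb5, Psmb6, Psmb7 and Irf1. Not every gene that this rule names is reported here. The figures for likeness are the 5 highest correlations. Alternatives were other pseudocounts (0.1) and filters (none, mean FPKM of at least 5), other scalings, a replicate block, length trends removed and leaving out each library. For the ratios, the length trend and quantile normalization were added after seeing the data.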

Additional observations from a re-analysis of the deposited data

Results flagged for a closer look

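The ratio of Psmb8 to Psmb5 moved in opposite directions with time in the genotypes. It was lower in both wild-type libraries at 6 h (1.29 and 1.83) than in those at 90 min (1.85 and 2.08), and higher in the GdX-deficient library at 6 h (3.09) than in both at 90 min (2.49 and 2.99). The change in GdX-deficient libraries exceeded that in wild type by 0.54 on the log2 scale. Without wild type 6 h replicate 1, left out after seeing the data, it did so by 0.29, and without any 1 of the 5 other libraries that could be left out by 0.40 to 0.79. In wild type the separation of the times rested on 1.83 against 1.85. This difference was not tested.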

How the results depend on the processing

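None of the 10 class I genes was called between genotypes under the alternatives run, and the differences of the 3 subunit ratios stayed above 0 in all of them. Nlrc5, the least deeply sequenced of the 10, had a counting error of about 2.18% in its lowest library.

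Leaving out 1 library at a time, genes called ranged from 2 to 169 (2 in the main fit) between genotypes at 90 min, 624 to 3010 (450) at 6 h, 2 to 1660 (5) with time as a covariate, 455 to 1755 (1218) between times in wild type, 0 to 233 (0) between times in GdX-deficient libraries and 0 to 225 (8) for the interaction. Class I genes called between times in wild type ranged from 0 to 2 (1). Log2 differences crossed 0 at 90 min for Tap1 (-0.18 to 0.21), Tap2 (-0.0295 to 0.27), Tapbp (-0.19 to 0.29) and B2m (-0.10 to 0.094), at 6 h for Psmb8 (-0.29 to 0.078), Psmb9 (-0.82 to 0.0365), Psmb10 (-0.49 to 0.17) and Nlrc5 (-0.075 to 0.79), between times in wild type for H2-K1 (-0.098 to 0.006) and B2m (-0.38 to 0.27), and between times in GdX-deficient libraries for Tap1 (-0.18 to 0.22).

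Quantile normalization called 270 genes at 6 h and 4 for the interaction, and moved the median of all genes from 0.32 to -0.017 at 6 h. It turned H2-K1 (0.15), H2-D1 (0.077), B2m (0.30) and Psmb8 (0.11) at 90 min, Tap2 (0.16), Tapbp (0.17), Psmb8 (0.26), Psmb9 (0.022) and Psmb10 (0.16) at 6 h, and Tap1 (-0.011) between times in GdX-deficient libraries. Equal library sums without globin called 253 genes at 6 h, 708 between times in wild type, none of them a class I gene (0), and 0 for the interaction, and moved the median of all genes to 0.55 at 6 h and 0.25 at 90 min. They turned H2-K1 (0.080), H2-D1 (0.045), B2m (0.21) and Psmb8 (0.090) at 90 min, Tap2 (0.14), Tapbp (0.12), Psmb8 (0.17) and Psmb10 (0.12) at 6 h, and Tap1 (-0.028) between times in GdX-deficient libraries.

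With the length trend removed, 0 genes were called at 90 min, 1168 at 6 h, 2450 between times in wild type (2 class I genes), 15 between times in GdX-deficient libraries and 47 for the interaction. It turned B2m (0.29), Tap1 (-0.052), Tap2 (-0.0006), Tapbp (-0.012) and Psmb8 (0.0038) at 90 min, Nlrc5 (-0.24) at 6 h, and H2-K1 (-0.045) and Tap1 (-0.21) between times in GdX-deficient libraries. No filter on low values called 90, 635, 22 and 3 genes at 6 h, between times in wild type and in GdX-deficient libraries, and for the interaction. A mean FPKM of at least 5 called 233 at 6 h and 0 for the interaction, a pseudocount of 0.1 called 0 for the interaction, and fitting only the libraries compared called 184 at 90 min. The cause of these changes was not tested.

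The labels number the replicates but do not pair them. Same-numbered libraries deviated together in wild type across times (correlation across genes 0.77) and not across genotypes at 90 min (-0.12). A replicate block called 3383 genes at 6 h, 12 with time as a covariate, 2345 between times in wild type, 37 in GdX-deficient libraries and 80 for the interaction. Under this block Psmb5 (adjusted p = 0.0223), Psmb6 (0.0127) and Psmb7 (0.040) were called lower at 6 h (Psmb7 not with the length trend removed as well, 0.0669), and the ratio differences at 90 min were 0.47, 0.46 and 0.21. With the block and the length trend removed, counts were 0 at 90 min, 2005 at 6 h, 0 with time as a covariate, 2701 between times in wild type (2 class I genes) and 2 for the interaction. That pairing turned B2m (0.29), Tap1 (-0.052), Tap2 (-0.0006), Tapbp (-0.012) and Psmb8 (0.0038) at 90 min, Nlrc5 (-0.28) at 6 h, and H2-K1 (-0.093) and Tap1 (-0.32) between times in GdX-deficient libraries.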

Other observations

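Beta2-microglobulin and the classical heavy chains did not keep a fixed proportion. B2m over the sum of H2-K1 and H2-D1 was 0.553 and 0.525 in wild type at 90 min and 0.592 and 0.597 in GdX-deficient libraries at 90 min. It was 0.437 and 0.698 in wild type at 6 h and 0.675 in the GdX-deficient library at 6 h, so the wild-type pair at 6 h spanned the whole range. H2-K1 made up 51.1% to 55.3% of the sum of both heavy chains in all 7 libraries.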
